A study of Mus musculus with 18 samples.

Results

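The genes described here are 43 genes of DNA replication and nucleotide synthesis, taken by symbol from a table of 23234 gene symbols. All 43 were in the table, and all 43 passed the filter on low values described with the processing. The study compared T cells with and without G9a, the product of Ehmt2, which methylates lysine 9 of histone H3, on a C57BL/6 background. RNA came from spleen and lymph node T cells that had multiplied for 4 weeks in a lymphopenic setting. The groups were G9a knockout CD4+CD8+ cells (KO DP, n = 4), G9a knockout cells with CD8 and no CD4 (KO SP, n = 2) and G9a wild-type cells with CD8 and no CD4 (WT SP, n = 4). The second assay mapped histone H3 lysine 9 trimethylation (H3K9me3) in spleen CD8 T cells cultured with antibodies to CD3 and CD28, with 2 wild-type (Ehmt2+/+) and 2 knockout (Ehmt2-/-) libraries. Not given in these sources are the host, the animals' ages, the deleted part of Ehmt2 and what drove its deletion. Nothing in the labels ties the libraries of a group to separate animals, and the p-values below measure only the spread between these libraries, which may be technical.

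A cell copies its genome by loading the MCM helicase onto origins in G1 phase, with the origin recognition complex, Cdc6 and Cdt1 as loaders. At the start of S phase Cdc45 and the GINS complex join MCM and start it unwinding, and polymerases, the sliding clamp PCNA and its loader, a flap nuclease and a ligase then make and join the new strands. Ribonucleotide reductase, thymidylate synthase and thymidine kinase supply deoxynucleotides, and the CAF-1 complex places histones on the new DNA. Many of these genes are transcribed under E2F factors as a cell leaves G1, and their RNA is widely read as a sign of cycling. T cells placed in a host with few lymphocytes are known to divide.

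The windows just upstream of the transcription start were searched for words that E2F factors are known to bind. Promoters of 35 of the 43 genes were in the RefSeq table used (build GRCm38.p6), which gives 250 bases before and 50 after each start. The words TTTCCCGC, TTTGGCGC, TTTCGCGC and TTTGCCGC were searched on both strands, and the words can overlap each other. At least 1 word was in the promoter of 13 of the 35 genes (37.1%), against 704 of all 27025 genes in the table (2.605%) and 380 of the 7779 genes tested for RNA that had a promoter there (4.885%). TTTGGCGC was in 7 of the 35 genes and in 158 of all 27025 (0.585%), TTTCGCGC in 6 and in 101 (0.374%), TTTCCCGC in 5 and in 334 (1.24%), and TTTGCCGC in none of the 35 and in 137 (0.507%). Of the 32851 promoters in the table, 744 held any of the words (2.265%). The shorter CCAAT word, known from NF-Y sites, was in 21 of the 35 genes (60%), 41.1% of all genes and 43.8% of the tested genes. These matches describe letters in a window and are not binding data. In 7 genes a word lay upstream of the start, and their 170 bases before the start are printed because these are the windows that hold a word there. Rrm2 is printed beside them as a gene with one of the larger differences in RNA and no whole word in its window. Each line runs 5′ to 3′ on the gene's strand and ends at the base before the start, and capitals mark the E2F words on either strand. Mcm7 has 2 starts in the table, and the one with words is shown.
Cdc6 (chr11:98907981-98908150, plus strand): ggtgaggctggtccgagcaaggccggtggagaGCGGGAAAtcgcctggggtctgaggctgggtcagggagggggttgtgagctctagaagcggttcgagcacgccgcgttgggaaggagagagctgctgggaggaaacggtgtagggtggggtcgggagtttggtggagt
Orc1 (chr4:108579284-108579453, plus strand): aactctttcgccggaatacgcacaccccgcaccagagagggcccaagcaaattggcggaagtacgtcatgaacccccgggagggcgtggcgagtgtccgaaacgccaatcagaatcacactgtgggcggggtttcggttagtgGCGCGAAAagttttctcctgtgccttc
Mcm5 (chr8:75109339-75109508, plus strand): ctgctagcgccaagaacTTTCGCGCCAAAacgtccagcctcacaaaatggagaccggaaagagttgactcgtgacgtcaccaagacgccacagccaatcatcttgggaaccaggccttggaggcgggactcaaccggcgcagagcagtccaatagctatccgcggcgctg
Mcm6 (chr1:128359706-128359875, minus strand): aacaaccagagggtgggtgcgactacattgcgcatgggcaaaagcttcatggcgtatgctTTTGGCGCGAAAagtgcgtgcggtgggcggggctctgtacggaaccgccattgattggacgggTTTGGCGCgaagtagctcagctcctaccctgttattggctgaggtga
Mcm7 (chr5:138171884-138172053, minus strand): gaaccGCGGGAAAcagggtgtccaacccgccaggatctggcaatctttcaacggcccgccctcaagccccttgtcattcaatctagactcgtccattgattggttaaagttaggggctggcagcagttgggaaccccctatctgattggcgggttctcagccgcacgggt
Pola1 (chrX:93632156-93632325, minus strand): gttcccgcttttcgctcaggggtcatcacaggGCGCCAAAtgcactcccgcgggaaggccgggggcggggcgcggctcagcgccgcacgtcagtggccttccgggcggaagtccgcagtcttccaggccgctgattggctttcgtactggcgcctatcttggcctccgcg
Rfc3 (chr5:151651209-151651378, minus strand): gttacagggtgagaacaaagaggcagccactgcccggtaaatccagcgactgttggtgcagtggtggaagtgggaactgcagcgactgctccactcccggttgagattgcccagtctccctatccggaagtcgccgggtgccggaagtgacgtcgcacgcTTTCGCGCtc
Rrm2 (chr12:24708084-24708253, plus strand): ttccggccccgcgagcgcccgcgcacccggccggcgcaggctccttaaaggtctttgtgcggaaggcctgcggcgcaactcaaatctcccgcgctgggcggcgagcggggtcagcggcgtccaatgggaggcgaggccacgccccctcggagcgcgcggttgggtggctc
In Mcm5 the capitals hold 2 words, on opposite strands, that share bases, and Mcm6 has a like overlapping pair and another copy nearer the start. Cdt1, E2f2, Lig1, Mcm3, Pold1 and Pole2 held their words after the start.

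Values are FPKM, fragments per kilobase of transcript scaled to the mapped fragments of a library, divided by a size factor per library (scaled FPKM). Of the genes that name the groups, Ehmt2 had scaled FPKM of 17.8, 20.1, 17.1 and 15.5 in KO DP, 16.9, 38.0, 23.7 and 19.5 in WT SP, and 10.3 and 11.7 in KO SP, with log2 differences from WT SP of -0.40 ± 0.22 in KO DP (SE, limma adjusted p = 0.245) and -1.03 ± 0.27 in KO SP (adjusted p = 0.299). A value over the whole gene does not check a deletion whose extent is not given. Cd4 was at 105 to 152 in KO DP and at most 0.462 elsewhere, and Cd8a was between 149 and 297 in every library. Cd8a was lower in KO DP than in WT SP, with overlapping groups (-0.51 ± 0.15, limma adjusted p = 0.0474). KO DP replicates 3 and 4 stood apart: their FPKM summed to 292872 and 183632, against 441903 to 504013 in the other 8, and the mean scaled FPKM of 1118 olfactory receptor genes was 0.200 and 0.484 in them, against at most 0.0190. Relative depth, read from the steps between low values, ran from 0.799 to 1.57 of that of KO SP replicate 1, and was 1.19 and 1.14 in KO DP replicates 3 and 4. In these 2 libraries only 23.2% and 22.6% of the low values stood in small whole ratios to KO SP replicate 1. That share was 31.6% to 42.8% in the others, so the depth of these 2 is the least sure. The numbers in the titles fall into 34 to 37 (the first 2 replicates of KO DP and of WT SP) and 738 to 741 (the other 6 libraries). The labels do not say what these numbers mark.

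The genes that rose in KO DP over WT SP were 3 of 6 MCM subunits, 1 of 5 licensing genes, 3 of 5 of helicase activation, 3 of 5 polymerase genes, 2 of 6 of the clamp and its loader, 2 of 3 of lagging-strand joining and uracil removal, 3 of 4 of deoxynucleotide supply and 1 of 2 of histone deposition. None of the 3 single-strand binding genes or of the 4 G1/S regulators passed the test. By limma with Benjamini-Hochberg adjustment, 18 of the 43 passed an adjusted p of 0.05 as higher and 0 as lower, and 25 did not pass. Over all 11162 genes tested, 9.20% passed as higher and 8.82% as lower. The difference on log2(scaled FPKM + 1) was above 0 in 41 of the 43 genes, with a median of 1.02, and in 46.4% of all genes, with a median of -0.04. The libraries did not overlap, with KO DP above, in 15 genes, against 9.43% of all genes, and with KO DP below in 1 gene, Rfc1, against 10.2%. At an unadjusted p under 0.05 there were 35 genes, 34 of them higher (15.3% of all genes). In bulk RNA, fewer cells that express a gene and less RNA per cell cannot be told apart.

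The excess was smaller in the first title range than in the second, and none of the 43 genes was called higher without KO DP replicates 3 and 4. Within titles 34 to 37 (2 against 2 libraries) 37 of the 43 genes were above 0 with a median of 0.36 (45.8% of all genes were above 0), and limma called 0 of them (0.340% of all genes as higher), with 4 at an unadjusted p under 0.05 (18.1% of all genes). Within titles 738 to 741 (2 against 2) 41 were above 0 with a median of 1.45 (46.3% of all genes were above 0), and 31 were called higher (14.7%). With KO DP limited to replicates 1 and 2, none of the 43 was called higher (4.47% of all genes), Rfc1 was called lower (3.30%), 38 were above 0 with a median of 0.60 (46.9% of all genes were above 0), and 16 were higher at an unadjusted p under 0.05 (12.7%). On FPKM as deposited, without scaling, the calls were Cdc6, Gins2 and Rrm2 (2.86% of all genes passed as higher and 5.03% as lower), the median of the 43 was 0.62 and that of all genes was -0.38, against -0.04 with scaling. Over all genes that setting gave 319 higher and 562 lower, against 1027 and 984 with scaling.

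Of markers of other cells, 5 of 5 dendritic genes were in the table and summed to a scaled FPKM of 4.53 to 9.39 in KO DP, 1.67 to 2.01 in KO SP and 1.14 to 2.42 in WT SP, and both that were tested, Zbtb46 and Xcr1, were called higher in KO DP. The 9 erythroid genes summed to 573 and 1034 in KO DP and 438 and 899 in WT SP within titles 34 to 37. In the 6 libraries titled 738 to 741 they summed to between 2.03 and 47.1. The 7 B cell genes summed to 27.4 to 91.3 in KO DP, 40.1 to 59.3 in KO SP and 14.7 to 80.3 in WT SP. The 9 myeloid genes summed to 22.9 to 155 in KO DP, 13.98 to 22.3 in KO SP and 12.2 to 123 in WT SP. Of these, S100a8 was at 0 in all 6 libraries titled 738 to 741. Cd68 was instead higher in every knockout library of that range than in WT SP. For Cd68, KO DP replicates 3 and 4 read 15.4 and 10.4, and KO SP replicates 1 and 2 read 15.4 and 5.49. WT SP replicates 3 and 4 had Cd68 at 1.70 and 1.80. Lyz2 overlapped there, with KO DP at 3.67 and 15.1 against WT SP at 5.82 and 12.6. The 4 NK cell genes summed to at most 2.65 in any library. The 10 T cell genes summed to 3265 to 4232 in KO DP, 4535 to 4766 in KO SP and 4119 to 4885 in WT SP. Against WT SP, 3 of them were called lower in KO DP (8.82% of all genes) and 2 higher (9.20%). The lower ones were Cd8a, Cd8b1 (-0.92, limma adjusted p = 0.00396) and Cd3d (-0.49, adjusted p = 0.0302), and the higher ones Cd4 and Cd5. Of the 6 thymocyte genes, Rag1, Rag2, Ptcra and Dntt reached at most 0.737. Arpp21 read 0.856 and 4.61 in KO DP replicates 3 and 4, against at most 0.186 elsewhere. Rag1 read 0.398 and 0.737 in these 2 libraries, against at most 0.0292 elsewhere. They are also the 2 with the raised olfactory receptor values. The thymocyte sum was mostly Cd1d1 (14.4 to 23.7). It was 14.9 to 24.5 in KO DP, 18.8 in both KO SP libraries and 14.5 to 24.0 in WT SP. The part of these cells in the excess was not tested.

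**Figure D1:**
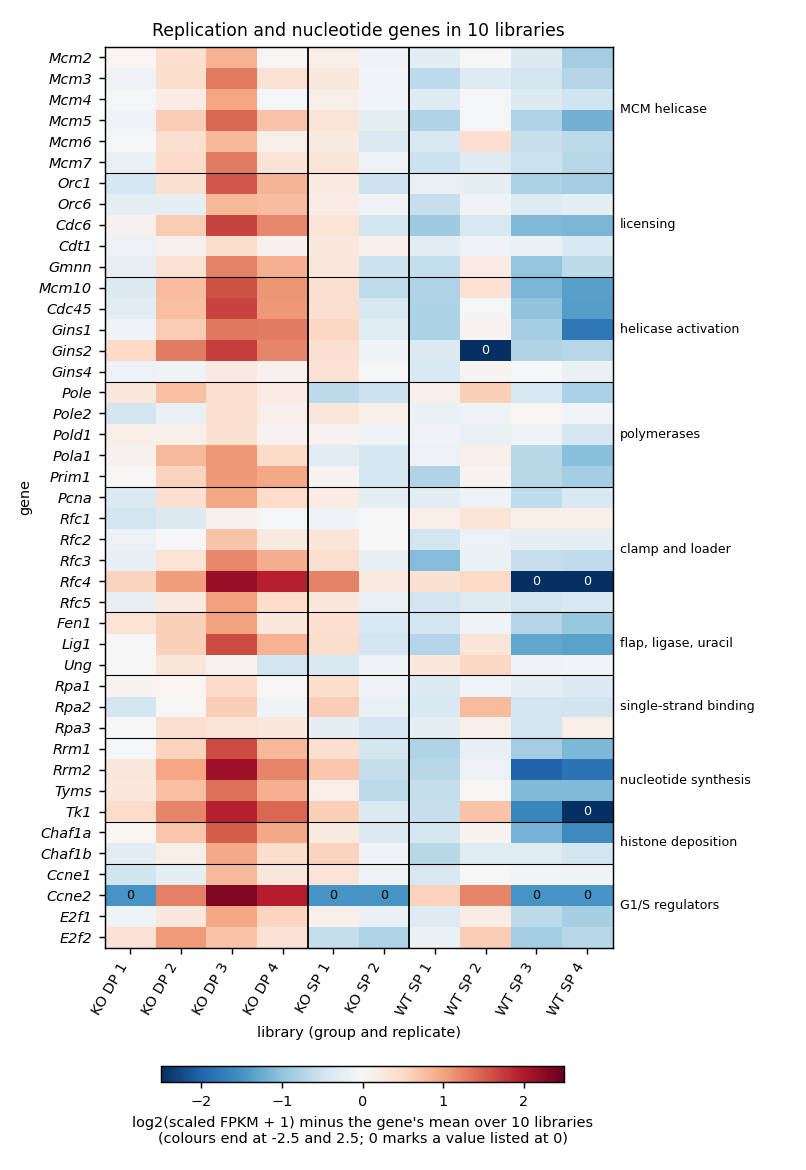
Heat map of the 43 replication and nucleotide genes (rows, grouped by role) in the 10 RNA libraries (columns), as log2(scaled FPKM + 1) minus the gene's mean over the 10 libraries. KO DP replicate 3 was the highest library in 36 of the 43 genes and WT SP replicate 4 the lowest in 25, and values listed at 0 are marked.

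The MCM helicase and its loaders opened the list. The 6 MCM subunits were all above 0 (median 0.86), and 3 passed as higher. Mcm5 had scaled FPKM of 47.8, 78.2, 139 and 83.9 in KO DP, 29.9, 49.9, 29.4 and 21.6 in WT SP, and 63.7 and 42.7 in KO SP. KO DP replicate 1 lay just under WT SP replicate 2, and the other KO DP libraries lay above all of WT SP. The log2 difference from WT SP was 1.35 ± 0.33 (SE, adjusted p = 0.0220). Mcm3 read 59.6, 88.3, 161 and 84.4 in KO DP, 41.3, 52.1, 47.1 and 38.8 in WT SP, and 78.3 and 62.5 in KO SP. Its groups did not overlap, and it rose by 1.03 ± 0.26 (adjusted p = 0.0241). Mcm7 rose by 1.02 ± 0.27 (adjusted p = 0.0291), also without overlap. Mcm2, Mcm4 and Mcm6 were 0.57 to 0.71 above WT SP and did not pass, with adjusted p from 0.0587 to 0.146. With the replicate number as a block Mcm2 passed (adjusted p = 0.0409).

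Of the 5 licensing genes, Cdc6 passed, with the smallest p of the 43 genes. Cdc6, the ATPase that brings MCM to the origin recognition complex, read 5.81, 8.80, 19.3 and 13.5 in KO DP, 2.43, 3.81, 1.93 and 1.85 in WT SP, and 7.01 and 3.60 in KO SP. Every KO DP library lay above every WT SP library, and the log2 difference was 1.79 ± 0.34 (adjusted p = 0.00812). Within titles 34 to 37 the difference was 1.01 and within 738 to 741 it was 2.57. Gmnn, which encodes geminin, the inhibitor of Cdt1 after origins have fired, read 24.3, 36.1, 67.7 and 52.8 in KO DP, 18.01, 32.4, 13.7 and 17.4 in WT SP, and 34.4 and 19.1 in KO SP. WT SP replicate 2 overlapped the KO DP range, and the difference of 1.08 ± 0.35 did not pass (adjusted p = 0.0604). Orc1 and Orc6, subunits of the origin recognition complex, were 1.11 ± 0.40 and 0.60 ± 0.26 above WT SP, and Cdt1 0.35 ± 0.14, with adjusted p from 0.0837 to 0.146.

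Helicase activation held some of the larger differences. Of its 5 genes Cdc45, Gins1 and Gins2 passed, and Mcm10 (1.51 ± 0.48, adjusted p = 0.0578) and Gins4 (0.14 ± 0.14, adjusted p = 0.526) did not. Cdc45, a subunit of the active helicase, read 10.5, 22.5, 43.8 and 28.7 in KO DP, 7.05, 12.5, 5.92 and 4.35 in WT SP, and 17.5 and 9.51 in KO SP. KO DP replicate 1 lay under WT SP replicate 2, and the other KO DP libraries lay above WT SP. Its difference was 1.62 ± 0.42 (adjusted p = 0.0274, and 0.0543 with the replicate number as a block). Gins1 differed by 1.61 ± 0.43 (adjusted p = 0.0304, and 0.0621 with the block). Gins2 read 11.9, 21.4, 29.4 and 20.5 in KO DP, 6.09, 0, 4.42 and 4.55 in WT SP, and 11.04 and 7.56 in KO SP. KO DP lay above WT SP in every library. The call was made with the 0 taken as measured (adjusted p = 0.0174). An exact 0 in such a table can be a failed estimate, and with it taken as missing the difference was 1.80 (adjusted p = 0.00240).

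Among the polymerases, Prim1, Pola1 and Pold1 passed and Pole and Pole2 did not. Prim1, the catalytic subunit of primase, read 21.8, 32.2, 46.8 and 43.3 in KO DP, 12.5, 22.6, 12.9 and 11.6 in WT SP, and 22.6 and 15.6 in KO SP. KO DP replicate 1 lay under WT SP replicate 2 and the other KO DP libraries above it. The difference was 1.21 ± 0.28 (adjusted p = 0.0168). Pola1, the catalytic subunit of polymerase alpha that extends the primer, read 6.801, 11.6, 14.2 and 8.998 in KO DP, 5.47, 6.84, 3.45 and 2.51 in WT SP, and 4.94 and 4.28 in KO SP. KO DP replicate 1 and WT SP replicate 2 were close together, with a difference between the groups of 1.06 ± 0.28 (adjusted p = 0.0296). Pold1, of the lagging-strand polymerase delta, differed little but evenly (0.39 ± 0.12, adjusted p = 0.0428) and was at -0.0007 without scaling. The leading-strand polymerase epsilon genes Pole (0.53 ± 0.28) and Pole2 (0.05 ± 0.18) had adjusted p of 0.230 and 0.881.

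The clamp loader, replication factor C, was the only role with subunits on both sides of WT SP without overlap. Rfc3 read 21.0, 30.9, 57.6 and 46.7 in KO DP, 10.96, 21.5, 16.1 and 15.4 in WT SP, and 32.5 and 21.1 in KO SP. Only KO DP replicate 1 and WT SP replicate 2 overlapped, and the difference was 1.18 ± 0.31 (adjusted p = 0.0293). Rfc5 read 22.6, 31.3, 54.1 and 36.4 in KO DP, 18.4, 20.8, 18.7 and 19.8 in WT SP, and 31.8 and 22.7 in KO SP. KO DP lay above WT SP throughout, with a difference of 0.80 ± 0.23 (adjusted p = 0.0398, and 0.0511 with the block). Rfc1, the large subunit, went the other way, at 8.27, 9.05, 12.8 and 11.4 in KO DP, 13.4, 15.1, 13.3 and 13.5 in WT SP, and 11.04 and 11.8 in KO SP. Every KO DP and KO SP library lay below every WT SP library, and the difference of -0.40 ± 0.14 between KO DP and WT SP did not pass (adjusted p = 0.0850). It passed as lower without KO DP replicate 3 (-0.49, adjusted p = 0.0498), with KO DP limited to replicates 1 and 2 (-0.62, adjusted p = 0.0255) and with the title range as a term. It was -0.66 within titles 34 to 37 and -0.13 within 738 to 741. Rfc4 read 23.4, 32.8, 73.2 and 62.6 in KO DP, 20.5, 22.1, 0 and 0 in WT SP, and 37.8 and 18.5 in KO SP. It did not pass with the zeros taken as measured (adjusted p = 0.0658), nor with those of WT SP replicates 3 and 4 taken as missing, where its difference was 0.99 (adjusted p = 0.172). Rfc2 (0.48 ± 0.18) and the clamp Pcna (0.72 ± 0.25) did not pass, with adjusted p of 0.102 and 0.0745.

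Of the 3 genes of lagging-strand joining and uracil removal, 2 were called. Fen1, the nuclease that trims flaps left by primers, read 45.8, 55.1, 73.3 and 43.8 in KO DP, 25.9, 34.0, 21.3 and 18.3 in WT SP, and 48.4 and 27.5 in KO SP. No KO DP library was as low as any of WT SP, and the difference was 1.11 ± 0.25 (adjusted p = 0.0152). Lig1, the ligase that seals the fragments, read 16.1, 25.1, 52.5 and 30.5 in KO DP, 9.37, 20.3, 5.95 and 5.77 in WT SP, and 22.4 and 11.3 in KO SP. WT SP replicate 2 lay above KO DP replicate 1, and the difference was 1.54 ± 0.44 (adjusted p = 0.0381, and 0.0754 with the block). Ung, which removes uracil from DNA, was under 1.17 in every library and did not pass (-0.16 ± 0.22, adjusted p = 0.658).

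None of the 3 subunits of RPA, the single-strand binding complex, passed. Rpa1 read 81.4, 79.6, 107 and 78.4 in KO DP, 59.8, 72.4, 65.6 and 59.8 in WT SP, and 104 and 71.0 in KO SP. The 4 KO DP libraries lay above WT SP by a small margin, 0.41 ± 0.15 (adjusted p = 0.0896). Rpa3 read 36.5, 49.4, 46.7 and 44.1 in KO DP, 31.0, 40.1, 26.1 and 41.0 in WT SP, and 31.3 and 27.2 in KO SP, and its groups overlapped (0.36 ± 0.16, adjusted p = 0.159). Rpa2 was 0.16 ± 0.33 apart (adjusted p = 0.780).

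Nucleotide synthesis had the largest median of the roles, 1.92, and 3 of its 4 genes passed. Rrm2, the regulated small subunit of ribonucleotide reductase, read 91.5, 149, 327 and 176 in KO DP, 46.1, 67.7, 17.9 and 20.01 in WT SP, and 120.1 and 49.0 in KO SP. All KO DP libraries lay above WT SP, with replicate 3 far above the rest, and the difference was 2.32 ± 0.51 (adjusted p = 0.0148). It was 1.05 within titles 34 to 37 and 3.59 within 738 to 741. Rrm1, the large subunit, rose by 1.49 ± 0.35 (adjusted p = 0.0186), also without overlap. Tyms, thymidylate synthase, read 10.6, 15.3, 23.9 and 16.7 in KO DP, 5.35, 8.75, 3.46 and 3.45 in WT SP, and 9.85 and 5.09 in KO SP. KO DP was again above WT SP in every library, and the difference was 1.52 ± 0.32 (adjusted p = 0.0125). Tk1, the thymidine kinase of the salvage route, read 18.6, 32.1, 53.7 and 37.3 in KO DP and 20.6 and 10.2 in KO SP, against 8.49, 22.3, 3.57 and 0 in WT SP. It had an adjusted p of 0.0532 with the 0 taken as measured, and a difference of 1.77 (adjusted p = 0.0429) with it taken as missing.

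Histone deposition and the G1/S regulators closed the list. Chaf1a, the large subunit of CAF-1, read 11.1, 17.8, 32.4 and 21.7 in KO DP, 7.62, 11.2, 4.21 and 2.88 in WT SP, and 12.7 and 8.14 in KO SP. WT SP replicate 2 barely exceeded KO DP replicate 1, and the difference was 1.58 ± 0.40 (adjusted p = 0.0241, and 0.0511 with the block). Chaf1b, its partner, read 21.7, 29.4, 52.1 and 36.3 in KO DP, 16.0, 21.4, 21.2 and 18.9 in WT SP, and 39.2 and 24.8 in KO SP, without overlap between KO DP and WT SP (0.76 ± 0.25, adjusted p = 0.0659). E2f1, an activating E2F factor, read 6.86, 9.10, 15.5 and 11.3 in KO DP, 5.72, 8.66, 4.38 and 3.75 in WT SP, and 8.22 and 6.55 in KO SP. WT SP replicate 2 again reached into the KO DP range (0.82 ± 0.27, adjusted p = 0.0666). E2f2, also an activator, read 12.6, 21.4, 16.6 and 12.7 in KO DP, 8.52, 15.4, 4.87 and 5.498 in WT SP, and 6.05 and 5.25 in KO SP. KO SP lay below all of KO DP, and KO DP exceeded WT SP by 0.91 ± 0.31 without passing (adjusted p = 0.0745, and 0.0470 with the block). Ccne1, a cyclin that drives S phase entry with Cdk2, was 0.22 ± 0.26 apart (adjusted p = 0.592). Its relative Ccne2 was listed at 0 in KO DP replicate 1, both KO SP libraries and WT SP replicates 3 and 4, and at 3.15 to 12.9 in the other 5 libraries. With the zeros taken as measured Ccne2 was 1.30 ± 0.88 above WT SP in KO DP (adjusted p = 0.338), and with them taken as missing 0.95 (adjusted p = 0.131).

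**Figure D2:**
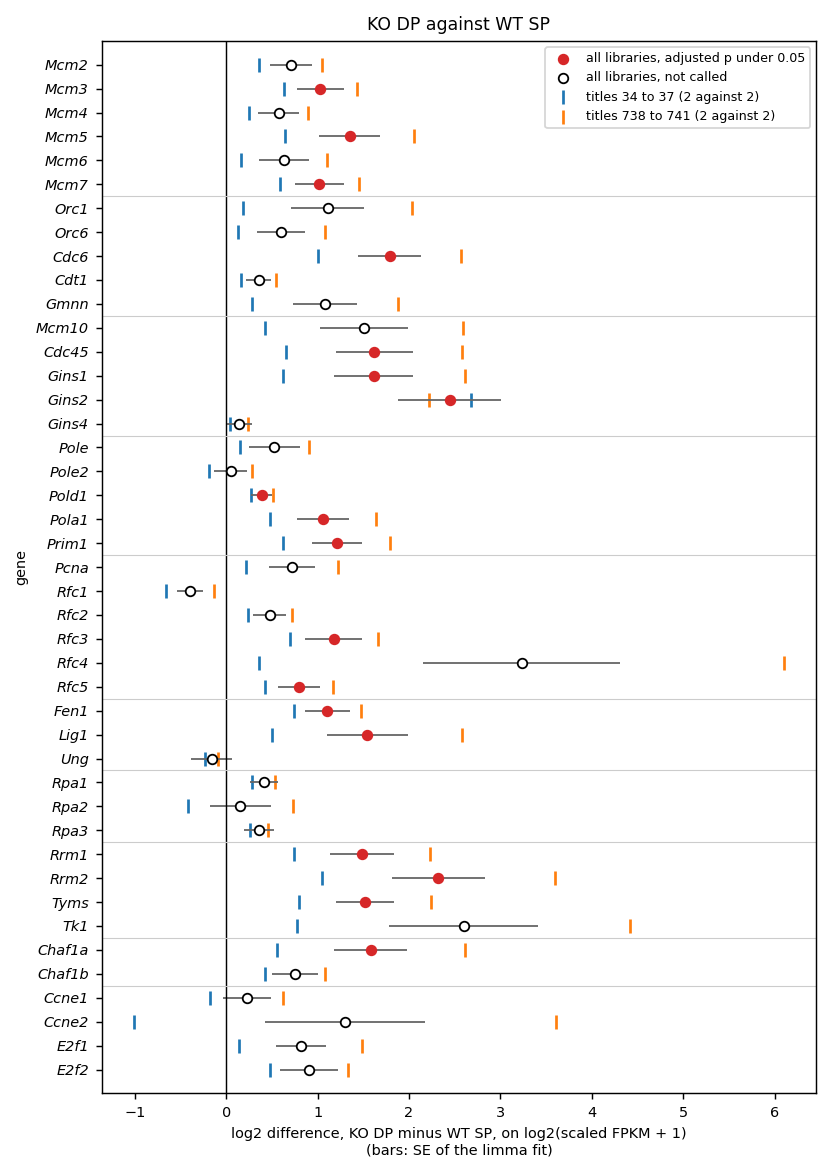
Log2 difference between KO DP and WT SP for each of the 43 genes, with the SE of the limma fit as bars; filled points passed an adjusted p of 0.05, and the ticks give the difference within each range of title numbers. In most genes the tick for titles 738 to 741 lies to the right of the tick for titles 34 to 37, with medians of 1.45 and 0.36.

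How far a call depended on a single library differed between genes. Cdc6, Fen1, Rrm2 and Tyms stayed called with any 1 of the 10 libraries left out, and the other 14 calls were each lost in 2 to 9 of these fits. Leaving out KO DP replicate 4 kept 4 of the 18 calls, WT SP replicate 3 or 4 kept 5, KO DP replicate 3 kept 7, KO DP replicate 2 kept 8 and WT SP replicate 1 kept 9. The 85 other pathway genes described below also fell in these fits, from 15 called higher to between 3 and 6. Shares of all genes are not given for these fits, so a general loss of calls cannot be told apart from dependence of these genes on a library. Without WT SP replicate 2, all 18 were kept and Mcm2, Mcm6, Gmnn, Mcm10, Pole, Rfc4, Tk1, E2f1 and E2f2 were added, and without KO DP replicate 1, 17 were kept and 7 added. Pold1 was lost in the most fits, 9, and Rfc5 and Lig1 also lost their calls without a KO SP library, which enters only through the shared estimate of the spread. Without KO DP replicate 3, Rfc1 was added as lower.

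**Figure D3:**
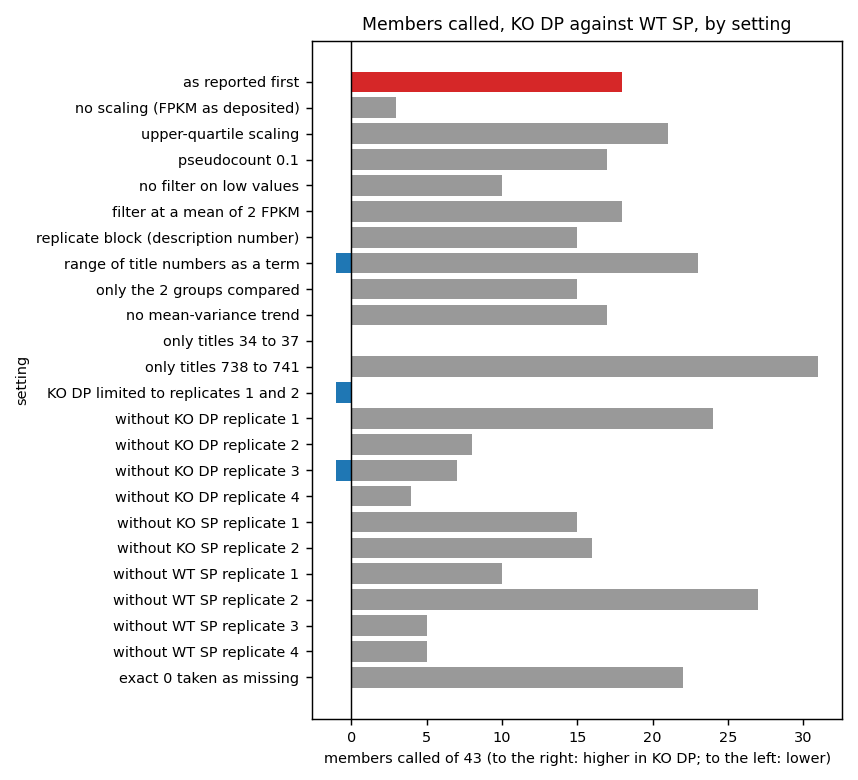
Number of the 43 genes called in KO DP against WT SP under each setting (bars to the right, higher in KO DP; bars to the left, lower). The count was 18 as reported first, 31 within titles 738 to 741, 0 within titles 34 to 37 and 3 without scaling.

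Within a group the same library was highest for most of these genes. KO DP replicate 3 was the highest of the KO DP libraries in 39 of 43 genes, against 25.9% of all genes tested. WT SP replicate 2 was the highest of WT SP in 38 (30.85% of all genes), and KO SP replicate 1 lay above replicate 2 in 39 (45.63%). The mean over the 43 genes on log2(scaled FPKM + 1) was 4.22, 4.76, 5.40 and 4.90 in KO DP, 3.90, 4.32, 3.58 and 3.42 in WT SP, and 4.51 and 4.02 in KO SP. So KO DP replicate 1 lay below WT SP replicate 2 and KO SP replicate 1 on this mean, and the other 3 KO DP libraries lay above all of WT SP. On FPKM as deposited KO DP replicate 3 was the highest of all 10 libraries in 20 genes in place of 36. Whether the excess of KO DP over WT SP differed between the title ranges was also tested: of the 43 genes only Rfc4 passed (0.314% of all genes did), through its zeros, and 22 had an unadjusted p under 0.05 (14.6% of all genes). For Rrm2 that difference of differences was -2.54 ± 0.65 (titles 34 to 37 minus 738 to 741, adjusted p = 0.205), and for Cdc6 -1.56 ± 0.46 (adjusted p = 0.234).

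KO DP and KO SP share the knockout and differ in CD4, and none of the 43 genes was called between them. Limma gave 0 of 43 at an adjusted p of 0.05, against 5.91% of all genes in either direction (2.44% higher, 3.48% lower). At an unadjusted p under 0.05, 8 genes were higher (9.94% of all genes): Cdc6, Pole, Pola1, Prim1, Rpa3, Tyms, Ccne2 and E2f2. For Ccne2 both KO SP values are listed at 0, and with zeros taken as missing its difference could not be estimated. The difference was above 0 in 36 genes with a median of 0.54, against 50.2% of all genes and a median of 0.00. Cdc6 was 0.97 ± 0.42 higher in KO DP (adjusted p = 0.196), Tyms 1.06 ± 0.39 (adjusted p = 0.137) and Prim1 0.85 ± 0.34 (adjusted p = 0.161). E2f2 had the smallest p, with 1.31 ± 0.38 (adjusted p = 0.0751), and Pole, at 4.47, 6.601, 4.95 and 4.20 in KO DP and 1.87 and 2.10 in KO SP, differed by 1.01 ± 0.35 (adjusted p = 0.116). Pole was also lower in KO SP than in 3 of the 4 WT SP libraries (3.91, 5.84, 2.44 and 1.57). The groups did not overlap in 6 genes with KO DP above (17.8% of all genes): Gins2, Pole, Pola1, Rpa3, Tyms and E2f2. On FPKM as deposited the median of the 43 was 0.07, with 23 above 0, and the median of all genes was -0.43.

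Only libraries titled 738 to 741 allow this comparison within a title range. There 42 of the 43 genes were above 0 with a median of 0.77 (47.7% of all genes were above 0), and 11 were called higher (7.91%). KO DP replicate 3 and KO SP replicate 1 carry title number 738, and KO DP replicate 4 and KO SP replicate 2 carry 739; the labels do not say what a shared number marks. Within title 738, 42 genes were higher in KO DP (median 0.84), and within title 739, 39 were (median 0.74). In both, 38 were higher, against 35.0% of all genes. With KO DP limited to replicates 1 and 2, which have no KO SP library in their range, 31 were above 0 with a median of 0.19 (48.9% of all genes were above 0) and 0 were called by limma (2.37% as higher). At an unadjusted p under 0.05 there were 4, 2 of them higher, against 30.8% of all genes.

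KO SP and WT SP share the surface phenotype and differ in G9a, with WT SP also used in the first comparison. Limma called 0 of the 43 genes (0.179% of all genes in either direction, 0.134% higher and 0.0448% lower), and 2, Cdt1 and Rpa1, were higher at an unadjusted p under 0.05 (5.97% of all genes). The difference was above 0 in 37 genes with a median of 0.42, against 51.9% of all genes and a median of 0.02. Cdt1, the Cdc6 partner in loading MCM, was 0.42 ± 0.17 higher in KO SP (adjusted p = 0.366), and Rpa1 0.42 ± 0.18 (adjusted p = 0.375). Rrm2 was 1.21 ± 0.63 apart (adjusted p = 0.416), with KO SP replicate 2 at 49.0 inside the WT SP range and replicate 1 at 120.1 above it. Groups did not overlap in 9 genes with KO SP above (15.0% of all genes) and in 1, Rfc1, with KO SP below (14.4%). Within titles 738 to 741 (2 against 2) 39 genes were above 0 with a median of 0.64 (49.8% of all genes were above 0), and Rfc4, with both WT SP values at 0, was the only one called (0.314% of all genes). The WT SP libraries enter both this comparison and that of KO DP, so the 2 sets of differences share a control.

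Other genes of the same pathways, 85 of them reported here, were read in the same fit. Of 35 other replication factors 6 were higher in KO DP than in WT SP (9.20% of all genes) and 0 lower (8.82%). The 6 were Gins3, Recql4, Clspn, Asf1b, Chtf18 and Atad5 (Recql4 and Clspn were named after their values were seen). Asf1b, a histone chaperone that hands histones to CAF-1, read 43.1, 86.0, 182 and 111 in KO DP, 26.3, 40.0, 17.5 and 14.8 in WT SP, and 71.7 and 33.3 in KO SP, without overlap between KO DP and WT SP (1.98 ± 0.46, adjusted p = 0.0174). Atad5, which takes PCNA off DNA, rose by 1.04 ± 0.23 (adjusted p = 0.0152), Chtf18, of an alternative clamp loader, by 1.13 ± 0.30 (adjusted p = 0.0293) and Gins3 by 0.65 ± 0.16 (adjusted p = 0.0228). Gins1, Gins2 and Gins3 of the GINS complex thus passed and Gins4 did not.

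Of 29 wider nucleotide enzymes reported here, 5 were lower in KO DP than in WT SP (8.82% of all genes): Impdh1, Gart, Dctd, Shmt2 and Nme1. Impdh1, a rate-limiting enzyme of guanine nucleotide synthesis, read 37.2, 34.2, 29.6 and 27.4 in KO DP, 60.2, 53.6, 69.6 and 60.4 in WT SP, and 56.5 and 58.0 in KO SP. KO DP lay below both other groups without overlap, by -0.91 ± 0.12 against WT SP (adjusted p = 0.00144). Gart, a trifunctional enzyme of purine synthesis, read 24.0, 21.0, 30.0 and 21.0 in KO DP, 51.7, 31.8, 47.6 and 42.5 in WT SP, and 41.2 and 45.0 in KO SP. It too fell without overlap (-0.82 ± 0.17, adjusted p = 0.0109), as did Dctd, a deaminase that feeds thymidylate synthesis (-1.12 ± 0.24, adjusted p = 0.0136), and Shmt2, the mitochondrial serine enzyme that supplies one-carbon units (-0.83 ± 0.18, adjusted p = 0.0152). Nme1, named after its values were seen, passed with overlapping groups (-0.49, adjusted p = 0.0496). Within titles 34 to 37 and 738 to 741 the differences were -0.66 and -1.16 for Impdh1, -0.83 and -0.82 for Gart, -1.24 and -1.01 for Dctd, and -0.85 and -0.80 for Shmt2. Against KO SP, 6 of these 29 were lower in KO DP (3.48% of all genes), namely the same 5 and Samhd1, which degrades deoxynucleotides. Impdh1 was 0.82 lower on the log2 scale (-0.82 ± 0.15, adjusted p = 0.0158).

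**Figure D4:**
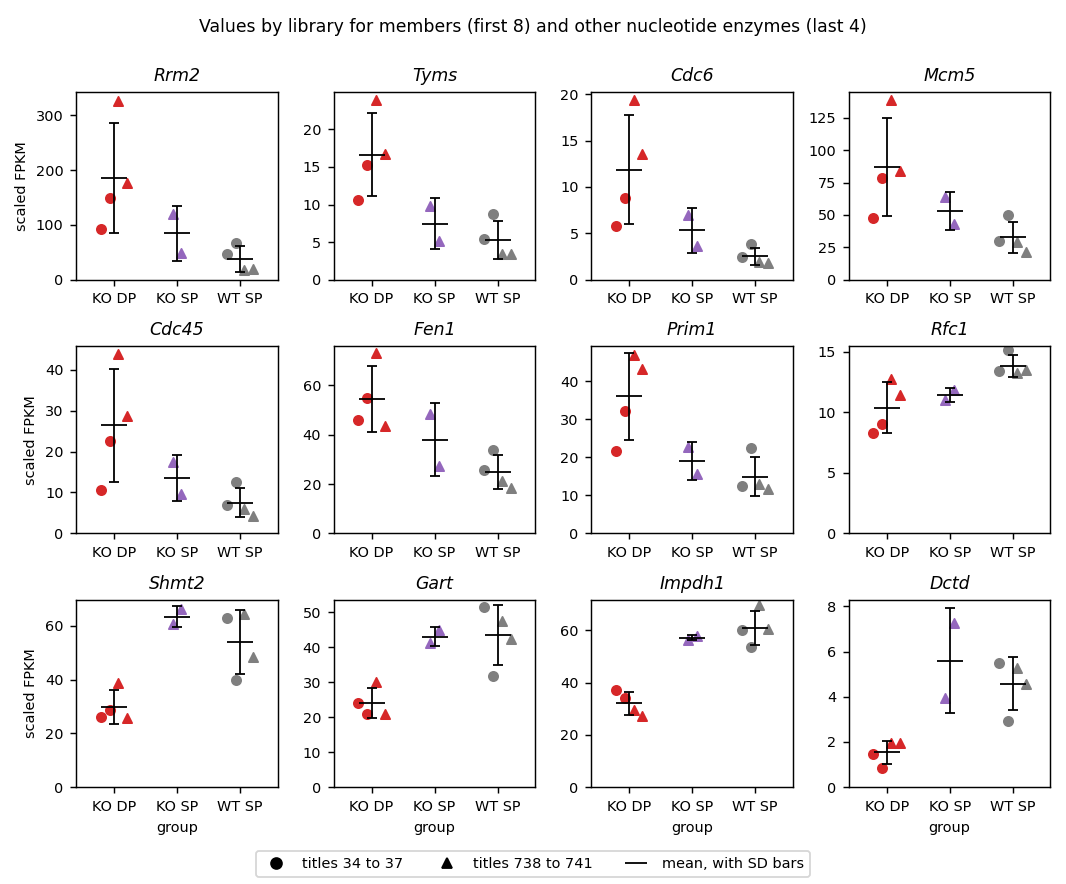
Scaled FPKM by library for 8 of the 43 genes (Rrm2 to Rfc1) and 4 other nucleotide enzymes (Shmt2 to Dctd), with circles for titles 34 to 37, triangles for 738 to 741, and mean with SD as bars. Rrm2 ran from 91.5 to 327 in KO DP and 17.9 to 67.7 in WT SP, while Impdh1 ran from 27.4 to 37.2 in KO DP and 53.6 to 69.6 in WT SP.

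Of 21 other G1/S regulators 9 were higher (9.20% of all genes) and 0 lower (8.82%) in KO DP than in WT SP. Rbl2, the p130 pocket protein that holds E2F genes off in resting cells, read 117, 108, 92.1 and 90.2 in KO DP, 40.4, 80.6, 33.8 and 31.8 in WT SP, and 49.4 and 54.0 in KO SP. KO DP lay above both other groups, and the difference from WT SP was 1.21 ± 0.26 (adjusted p = 0.0136). Unlike most of the 43 genes, Rbl2 was highest in KO DP replicates 1 and 2. Lin54, of the complex that joins pocket proteins to DNA, rose by 0.56 ± 0.13 (adjusted p = 0.0168), Tfdp2, an E2F partner, by 0.73 ± 0.18 (adjusted p = 0.0214), and Cks1b, a partner of cyclin-dependent kinases, by 1.81 ± 0.50 (adjusted p = 0.0325). The other 5, named after their values were seen, were Rb1, Rbl1, E2f7, Cdc25a and Mybl2. The 85 other genes gave 15 higher and 5 lower against WT SP (9.20% and 8.82% of all genes). Without scaling they gave 1 higher and 4 lower (2.86% and 5.03% of all genes). With KO DP limited to replicates 1 and 2 these were 0 higher and 4 lower (4.47% and 3.30% of all genes). With 1 library left out at a time they ran from 3 to 25 higher, fewest without WT SP replicate 4, and from 4 to 7 lower.

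H3K9me3 peaks were listed near the start sites of 3 to 6 of the 43 genes, a share below that of all genes in 2 of the 4 libraries and above it in the other 2. The authors' annotation ties each peak to its nearest gene, and a peak within 5 kb of the start was counted. Such a peak was listed for 6 and 5 of the 43 genes in the 2 wild-type libraries (13.95% and 11.63%) and for 6 and 3 in the 2 knockout libraries (13.95% and 6.98%). Over all genes of the RNA table the shares were 16.3% and 7.29% in wild type and 12.8% and 15.9% in knockout, from lists of 85960, 23304, 111147 and 154997 peaks, so lists of unequal length were not compared by a test. Within 1 kb of the start only Rrm1, in wild-type replicate 2, had a peak, against 1.64% to 5.20% of all genes in the 4 lists. Orc1 and Rfc5 had one in all 4 lists. The Orc1 peak lay in intron 1 of the gene over an ORR1A0 long terminal repeat, at chr4:108254738-108255869 in wild-type replicate 1 (build mm9), and its score stood at percentiles 87.7 and 90.1 of the wild-type lists and 92.5 and 89.0 of the knockout lists. Rfc5 had a peak 3.35 to 4.50 kb upstream, over long terminal repeats, at chr5:117841118-117844011 in wild-type replicate 1, and its score stood at percentiles 98.2 and 48.8 of the wild-type lists and 94.0 and 98.9 of the knockout lists. Scores are the authors' own and were used only within a list. These cells were cultured CD8 T cells and not the expanded cells of the RNA libraries, so the peaks and RNA were set side by side without a joint test.

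The promoter words were then read against the RNA calls, as counts only. Of the 16 genes called higher in KO DP over WT SP that had a promoter in the table, 8 held an E2F word, and of the 19 not called, 5 did. Called genes with a word printed above were Cdc6, Mcm5, Mcm7, Pola1 and Rfc3, while Orc1 and Mcm6 held words and were not called. Rrm2 and Tyms, with differences of 2.32 and 1.52, held none of the 4 words in the searched window.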

How the data were processed

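RNA was measured in 10 libraries and H3K9me3 in 4. The authors deposited gene FPKM values for the RNA. The submitters' processing notes name TopHat, Cufflinks, Bowtie, HOMER and build mm9 without versions. The kits in the labels' protocols (SMART-Seq v4, Nextera) do not mark strand, so overlapping genes on opposite strands cannot be told apart. For H3K9me3 the authors deposited HOMER peak lists with a peak score and the nearest gene, per the file headers, 1 list per library. The deposited FPKM carry no counts, so the depth behind a value is unknown beyond the relative depth given with the results.

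The 23700 lines of the table were summed to 23234 symbols, since 250 symbols stood on 716 lines. Each library was divided by its median ratio over 11742 genes above 0 in all libraries, and log2(scaled FPKM + 1) was fitted with limma 3.58.1 in R 4.3.3 (mean-variance trend, all 10 libraries, 7 residual degrees of freedom). Fold changes on this scale understate the change of low genes. The 11162 genes with a mean FPKM of at least 0.5 were tested, with Benjamini-Hochberg adjustment over all of them and a threshold of 0.05. The fit was tested on simulated data. Peaks and promoters were read with Python 3.11.15 and pandas 2.3.3.

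The 43 genes, their roles and the other lists were chosen with earlier results of these data known. In each role the 2 genes with the smallest p in KO DP against WT SP, and the lowest and highest difference of all 43, are given in every library. From each list of other pathway genes the 4 with the smallest p in KO DP against WT SP were named. In the list of other nucleotide enzymes 1 gene is not reported here and is left out of its counts. Replicate numbers of KO DP and WT SP were taken to pair libraries in the replicate block only, and the fit reported first has no block. The reason was that deviations from the group means correlated above 0.1 in every pair (0.151, 0.305, 0.101 and 0.135). Some pairs of unlike number in the same title range correlated as much or more (KO DP replicate 4 with WT SP replicate 3, 0.268, 3 with 4, 0.198, and 2 with 1, 0.183). The number is therefore not singled out from the title range. The other comparisons have 2 pairs and share only a number. Alternatives were no scaling, upper-quartile scaling, a pseudocount of 0.1, no filter, a filter at 2 FPKM, the replicate block, title range as a term, single title ranges, only the groups compared, no trend, and each library left out. Taking an exact 0 as missing was chosen after seeing the data.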

Additional observations from a re-analysis of the deposited data

Results flagged for a closer look

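In 5 of 86 groups of 4 libraries, 1 library stood apart from the other 3, by a gap to its nearest neighbour that was large for the group's whole range (Dixon's test). Chance flags about 1 in 20 such groups. WT SP replicate 2 was the library in 4 of them: Gins2, listed at 0 there (0.863 of the range), Prim1 (0.842), Rfc1 (0.890) and Rpa2 (0.908). KO DP replicate 3 stood apart for Rpa1 (0.878).

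The difference in Rfc4 between KO DP and WT SP differed between titles 34 to 37 and 738 to 741 (limma, adjusted p = 0.00124). Both WT SP values of the second range are listed at 0, and with zeros taken as missing none of the 43 genes passed this test.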

How the results depend on the processing

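For KO DP against WT SP, 18 of the 43 genes were called and the median difference was 1.02. Without scaling 3 were called (median 0.62), without the filter on low values 10, within titles 34 to 37 0 (median 0.36) and within titles 738 to 741 31 (median 1.45). With KO DP limited to replicates 1 and 2 none was called higher and 1, Rfc1, was called lower (median 0.60). Leaving out 1 library at a time gave 4 to 27 calls. For KO DP against KO SP, where 0 were called, only the 2 groups compared gave 2, titles 738 to 741 gave 11, and leaving out 1 library gave 0 to 2, and without scaling the median was 0.0728. For KO SP against WT SP, titles 738 to 741 gave 1. Of the other pathway genes 20 were called in KO DP against WT SP, 15 higher and 5 lower. Counted in both directions, this was 5 without scaling, 9 without the filter and 31 with title range as a term. It was 0 within titles 34 to 37, 38 within 738 to 741, 4 with KO DP limited, all of them lower, and 7 to 31 with 1 library left out. The test between title ranges called 1 of the 43 genes, 2 without scaling and 0 with zeros as missing. Over all genes it called 35 of 11162, 2561 without scaling and 16 with zeros as missing. KO DP replicate 3 was highest in 20 genes without scaling. H3K9me3 peaks within 1 kb were listed for 0 and 1 genes in wild type (5.20% and 1.64% of all genes) and 0 and 0 in knockout (2.415% and 3.36%). Within 20 kb they were listed for 13 and 11 in wild type (37.2% and 19.1%) and for 11 and 10 in knockout (32.3% and 37.3%). Among peaks in the upper part of the scores wild-type replicate 2 had 1 (4.70% of all genes). The cause of these changes was not tested.

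With the replicate number as a block 15 genes were called in KO DP against WT SP, with 13 of the 18 kept. Of the 85 other pathway genes it called 10 higher and 6 lower there, against 15 and 5 without the block. In KO DP against KO SP it called 2: Pole (1.30, adjusted p = 0.0183) and E2f2 (1.61, adjusted p = 0.0196). Calls also rose among the 85 other genes in that comparison, to 5 higher and 13 lower from 1 and 6 without the block. There the block crosses title ranges, as it joins KO SP replicates 1 and 2 (titles 738 and 739) to KO DP titles 34 and 35. Deviations from the group means correlated at only -0.026 and 0.0994 in these pairs. A block by title number, fitted only to libraries titled 738 and 739, left 1 residual degree of freedom. In KO DP against KO SP it called 0 of these genes and 0 of the 85 other genes. Of all 11162 genes it called only 9 higher and 5 lower. Such a fit can hardly call any gene, so its 0 does not bear on the calls for Pole and E2f2. At an unadjusted p under 0.05 it had 32 of these genes, all higher. In KO SP against WT SP the block by replicate number called 0.

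Some differences changed sign. Without scaling these were Cdt1 (-0.0362), Gins4 (-0.25), Pole2 (-0.32), Pold1 (-0.0007), Rpa2 (-0.25), Rpa3 (-0.0350) and Ccne1 (-0.17). Within titles 34 to 37 they were Pole2 (-0.18), Rpa2 (-0.42), Ccne1 (-0.18) and Ccne2 (-1.01). With KO DP limited they were Gins4 (-0.0014), Pole2 (-0.25), Ung (0.0103), Rpa2 (-0.0739) and Ccne1 (-0.24). With 1 library left out Pole2 ran from -0.0982 to 0.193, Rpa2 from -0.0428 to 0.463 and Ccne1 from -0.0199 to 0.421, each lowest without KO DP replicate 3, and Pole2 was at -0.0049 without KO DP replicate 4. Depth limits low genes such as Ung most.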
